A study of Mus musculus with 16 samples.

Results

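Cytochromes P450 of families 1 to 3 were taken from a gene-level RNA-seq count table of mouse liver. The members were all rows whose symbol begins with Cyp1a, Cyp2 or Cyp3a and ends in a number, without the Cyp2b genes, that were protein coding and had at least 10 counts in at least 4 of 16 livers. The pattern matched 52 of 53801 rows, and 37 were kept: 2 Cyp1a, 4 Cyp2a, 13 Cyp2c, 7 Cyp2d, 3 Cyp2j and 4 Cyp3a genes, with Cyp2e1, Cyp2f2, Cyp2r1 and Cyp2u1. Genes whose symbols end in a letter after the number fall outside the pattern. Just inside the threshold, Cyp2d12 reached 10 counts in 4 livers, and just outside it Cyp2s1 reached 10 counts in 3. The 15 genes not kept were Cyp2c65, Cyp2c66, Cyp2d34, Cyp2g1, Cyp2j7, Cyp2j8, Cyp2j11, Cyp2j12, Cyp2j13, Cyp2s1, Cyp2t4, Cyp2w1, Cyp3a16, Cyp3a44 and Cyp3a57.

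The study crossed genotype with diet. Control mice and mice with a liver-specific knockout of Degs1, which encodes the desaturase that places the double bond in ceramides, were fed either normal chow (NCD) or a high-fat diet (HFD), with 4 livers in each of the 4 groups. The series title concerns insulin resistance and fat accumulation in the liver after removal of that double bond. The labels name neither the Cre driver nor strain, age or sex, and every liver has its own animal number, with no pairing.

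Cytochromes P450 are haem enzymes of the endoplasmic reticulum that take electrons from a common reductase and insert oxygen into their substrates. Families 1 to 3 oxidise most drugs, pollutants and plant compounds in hepatocytes, and many members also act on steroids, arachidonic acid, bile acids or retinoids. Their transcription is known to respond to the aryl hydrocarbon receptor (Ahr), the constitutive androstane receptor (CAR, gene Nr1i3), the pregnane X receptor (PXR, gene Nr1i2) and, in mice, to the sex-dependent pattern of growth hormone. The symbol rule also takes in members best known for substrates made in the body, such as Cyp2r1, a vitamin D hydroxylase, and Cyp2c70, which forms muricholic acids.

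Library totals ran from 11938596 to 23250885 counts. Levels are given as CPM, counts scaled by TMM library size. Fold changes (FC) are log2 values ± SE from edgeR's quasi-likelihood test with Benjamini-Hochberg adjustment over 14351 genes, a gene was called at an adjusted p below 0.05, and p-values measure the spread between livers. Where no other tool or setting is named, a call is one of this fit on all 16 livers. Degs1 was at 80.4 to 87.9 CPM in chow controls and 35.9 to 39.3 CPM in chow knockouts, and at 60.2 to 101 against 26.1 to 41.6 CPM on the high-fat diet (exact permutation p = 0.0286 on each diet, two-sided, the smallest that 4 against 4 allows). Reads of genes in 2 annotation classes that hold mostly intronic or unproven transcripts are called the unspliced share below. The name is only a label, since unspliced reads as such were not counted. The share was 0.0263 to 0.0411% of counts in chow controls and 0.0463 to 0.0878% in chow knockouts. On the high-fat diet it was 0.0218 to 0.164% in controls and 0.162 to 0.191% in knockouts. It did not overlap between the chow groups or between the knockout groups, so as a covariate it can take up part of those differences. With it, edgeR called 0 of all genes for the knockout on either diet, so Degs1 lost its call too. High-fat control 3 and chow knockout 1 stood apart from their groups for several members, and the calls that change without them are given. All 7 hepatocyte markers were present, and the lung markers summed to at most 0.302 CPM in any liver. The 4 fat and pancreas markers reached 11 CPM in 1 high-fat knockout, with Adipoq and Plin1 the main ones, and at most 1.66 CPM in the other groups. Xist, the female marker, was at most 0.266 CPM in any liver. The Y-linked Ddx3y, Uty, Eif2s3y and Kdm5d were each at 21.6 CPM or more in every liver, so all 16 livers were male by these markers. Animal numbers separate the 4 groups, so a difference that goes with animal number cannot be told apart from genotype or diet.

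The 37 genes spanned a wide range of levels. Per length, in RPKM (CPM divided by the kilobases of exon), Cyp2e1 was the highest, and 18 members had a mean of at least 100 RPKM over the 16 livers. Cyp2e1, which oxidises ethanol and acetaminophen, stood at 3426 ± 704 RPKM in chow controls (SD, n = 4). It was followed by Cyp2c29, an abundant mouse liver epoxygenase, at 873 ± 142 RPKM and by Cyp2d9, a male-predominant testosterone hydroxylase, at 583 ± 172 RPKM. In the same livers Cyp2d26 was at 519 ± 96.6, Cyp2f2 at 454 ± 119.7, Cyp1a2 at 434 ± 107 and Cyp2d10 at 401 ± 106 RPKM. From Cyp2d9 to Cyp2d10, neighbours in this order differed by less than the SD of either, so the order is not resolved at 4 livers. At the low end, Cyp2d12 was at 0.0814 ± 0.0289 RPKM and Cyp2c69 at 0.448 ± 0.108 RPKM. The number at or above 100 RPKM was also 18 when the longest transcript was used in place of the union of exons, but the order then changed. Over all 16 livers Cyp2d9 (751 RPKM) then stood beside Cyp2c29 (742 RPKM), and Cyp3a11 was at 519 RPKM against 286 RPKM with the union. Together the members held 1.6 to 2.47% of all counts in a library.

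**Figure D1:**
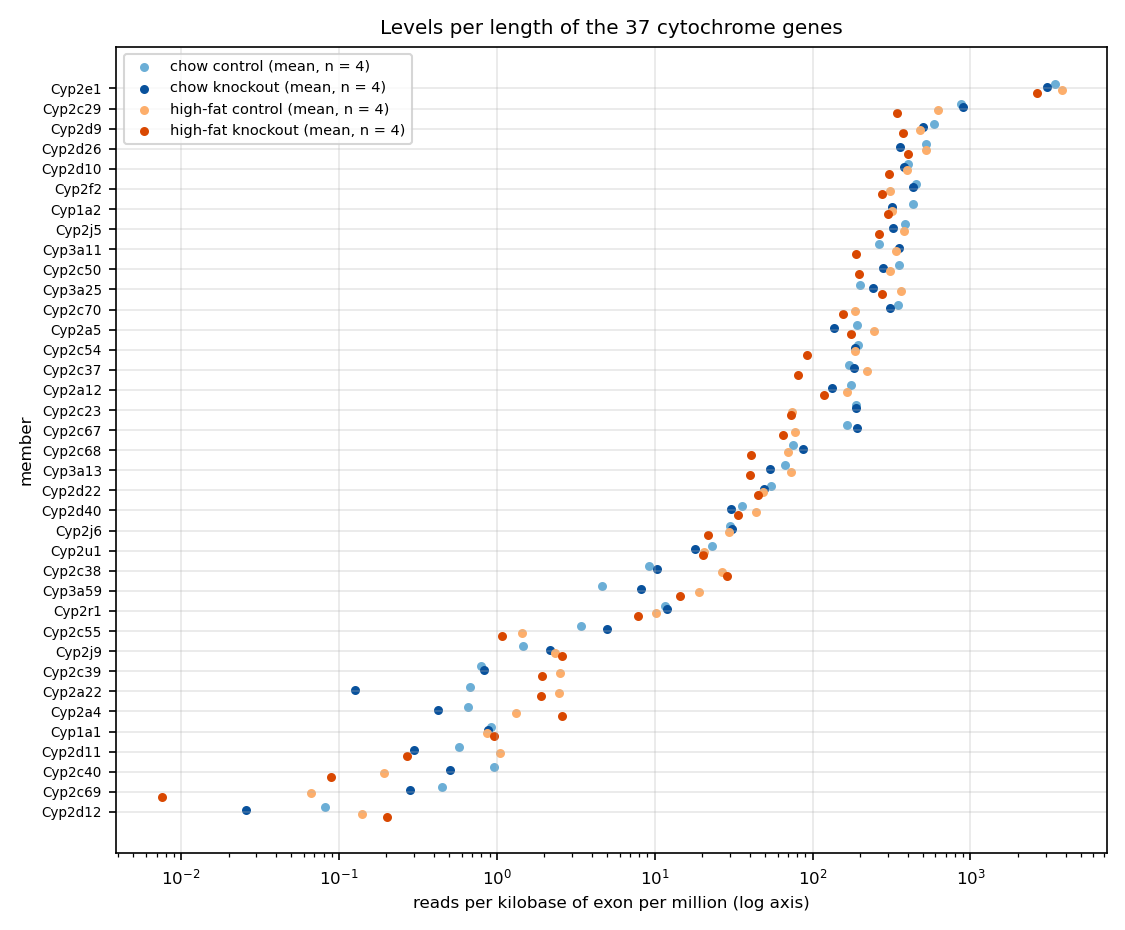
Mean RPKM (log axis) for each of the 37 members in the 4 groups of 4 livers, ordered by the mean over all livers. Cyp2e1 stands above all others, and Cyp2d12 and Cyp2c69 are the lowest.

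Many members are close paralogs in tandem clusters, and reads could be split among them or dropped. Of the 50-base windows in the longest transcript of a member, a median of 10.5% also occurred in a transcript of another gene. The share was 72.1% for Cyp2c40, 54.8% for Cyp2c69, 52.8% for Cyp2c67 and 30.1% for Cyp2c37, whose most frequent partner is Cyp2c50. It was 1.3% for Cyp2c29 and 0% for 7 members, including Cyp2c23, Cyp2c70, Cyp3a11 and Cyp3a13. The sources used here do not say how reads that map to several places were treated, so values of the genes with high shares are uncertain.

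The summed level of all 37 genes was lowest in the high-fat knockouts. The sums were 18486, 22491, 27622 and 22048 CPM in chow controls and 27563, 17272, 20119 and 18752 CPM in chow knockouts. They were 18664, 19779.9, 27546 and 21767 CPM in high-fat controls and 13365, 13812, 17476 and 16293 CPM in high-fat knockouts. Every high-fat knockout liver was below every high-fat control liver, while the 2 chow groups overlapped. In whole tissue, fewer hepatocytes and less RNA per hepatocyte cannot be told apart. Cyp2e1 took the largest part of these reads, and the subfamily with the widest gap between groups was Cyp2c, with a sum of 4915, 5531, 7069 and 6135 CPM in chow controls against 2071, 2225, 3458 and 2889 CPM in high-fat knockouts. In high-fat controls the Cyp2c sum was 3093, 4132, 5514 and 4832 CPM, where control 1 lay within the range of the high-fat knockouts, and these sums carry no test.

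**Figure D2:**
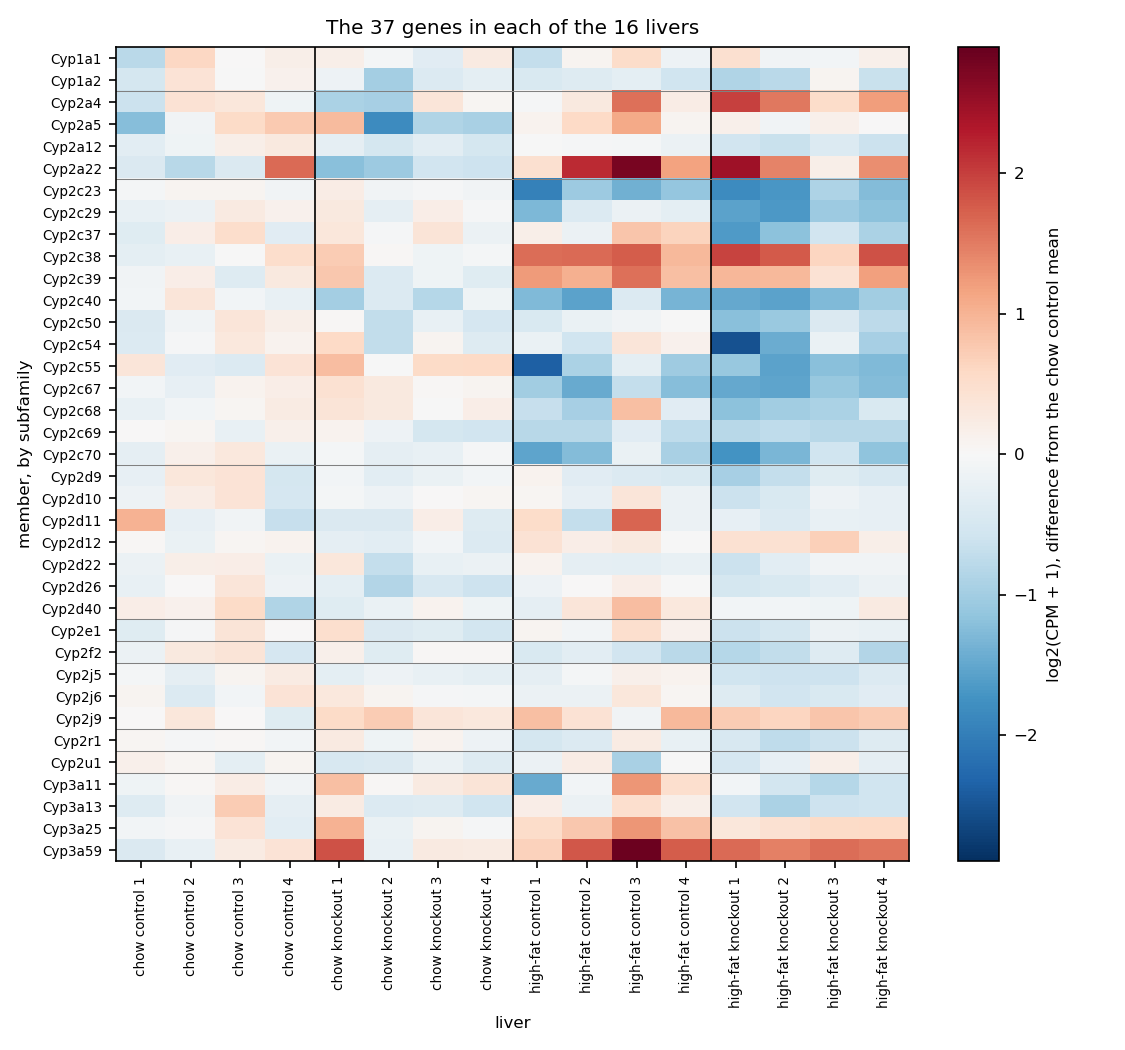
Colour gives log2(CPM + 1) of each member in each of the 16 livers, as a difference from the mean of the 4 chow controls, with rows grouped by subfamily. Cyp2c38, Cyp2c39 and Cyp3a59 are red and most other Cyp2c rows are blue in the high-fat livers, high-fat control 3 stands out in the Cyp2a and Cyp3a rows, and chow knockout 1 in Cyp3a rows.

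The first question is which members differed between knockout and control livers on the high-fat diet. Only Cyp2c37 passed the test, with lower levels in the knockouts, and it encodes an enzyme that oxygenates arachidonic acid. The gene (ENSMUSG00000042248) lies at chr19:39992424-40012243 on the plus strand of GRCm38. High-fat controls were at 338, 267, 531 and 471 CPM and high-fat knockouts at 96.1, 132, 205 and 161 CPM, with no overlap between the groups. The log2 fold change was -1.44 ± 0.26 (edgeR adjusted p = 0.0398). Of all 14351 genes tested, 0.0488% were called lower and 0.0627% higher in this comparison, against 1 and 0 of 37 members. The call was lost in 8 of 16 fits that left out 1 library, with an adjusted p of up to 0.189. These were the fits without chow control 2, chow knockouts 2 and 3, high-fat controls 3 and 4, and high-fat knockouts 1, 2 and 4. The adjusted p from edgeR was 0.0879 without high-fat control 3 (log2 fold change -1.26) and 0.231 when the unspliced share entered as covariate (log2 fold change -1.09). That covariate fit called 0 of all genes in this comparison.

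Below that threshold the direction was mostly downward. In the high-fat knockouts 32 of 37 members were lower and 5 higher, with a median log2 fold change of -0.39 against 0.03 for all genes tested. At an unadjusted p below 0.05 there were 14 members, all lower, and 21.4% of all genes passed that level in either direction. The groups did not overlap for 7 lower and 0 higher members, where 7.78% and 5.46% of all genes did so, so the upward count is under the background and the downward one above it. Without high-fat control 3, 28 of 37 were lower, the median was -0.18 and 0 members were called. By subfamily, 12 of 13 Cyp2c and 4 of 4 Cyp3a genes were lower, which became 9 and 3 without control 3, and 7 and 2 when the unspliced share entered as covariate.

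Members next in rank were spread over subfamilies. Cyp2j5, an arachidonic acid epoxygenase, was at 746, 866, 990.4 and 963 CPM in high-fat controls and 602, 587, 587 and 685 CPM in high-fat knockouts. These groups did not overlap, and the log2 fold change was -0.54 ± 0.13 (edgeR adjusted p = 0.0953). Cyp2c29 stood at 1068, 2017, 2339 and 2167 CPM against 897, 836, 1277 and 1165 CPM. High-fat control 1 lay inside the range of the knockouts, and the log2 fold change was -0.86 ± 0.22 (edgeR adjusted p = 0.0953). Cyp3a13 was at 215, 169, 264 and 212 CPM in controls and 129, 98.7, 124 and 126 CPM in knockouts, without overlap, with a log2 fold change of -0.85 ± 0.23 (edgeR adjusted p = 0.0989). For Cyp2a12, a steroid hydroxylase, the values were 597, 585, 573 and 534 and 407, 383, 457 and 387 CPM, also without overlap, with -0.49 ± 0.14 (edgeR adjusted p = 0.103). None of these 4 passed at 0.05 in edgeR, and DESeq2 called all 4 along with Cyp2c37 and Cyp2c50, among 578 genes in all.

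Among abundant members, Cyp2e1 was at 7636, 6908, 10247 and 7981 CPM in high-fat controls and 4747, 5122, 6473 and 6316 CPM in high-fat knockouts, again with no overlap. Its log2 fold change of -0.53 ± 0.22 (edgeR adjusted p = 0.177) did not pass the test. Cyp3a11, the main mouse counterpart of the human drug-metabolising CYP3A enzymes, ranged more widely. It was at 485, 1268, 3266 and 1888 CPM in high-fat controls, where control 1 was the lowest of all 16 livers and control 3 the highest, and at 1264, 928, 757 and 902 CPM in knockouts. Its log2 fold change was -0.84 ± 0.36 (edgeR adjusted p = 0.194), and -0.32 without control 3. The Cyp1a genes, classic targets of Ahr, had log2 fold changes of 0.17 ± 0.39 for Cyp1a1 and -0.08 ± 0.22 for Cyp1a2.

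**Figure D3:**
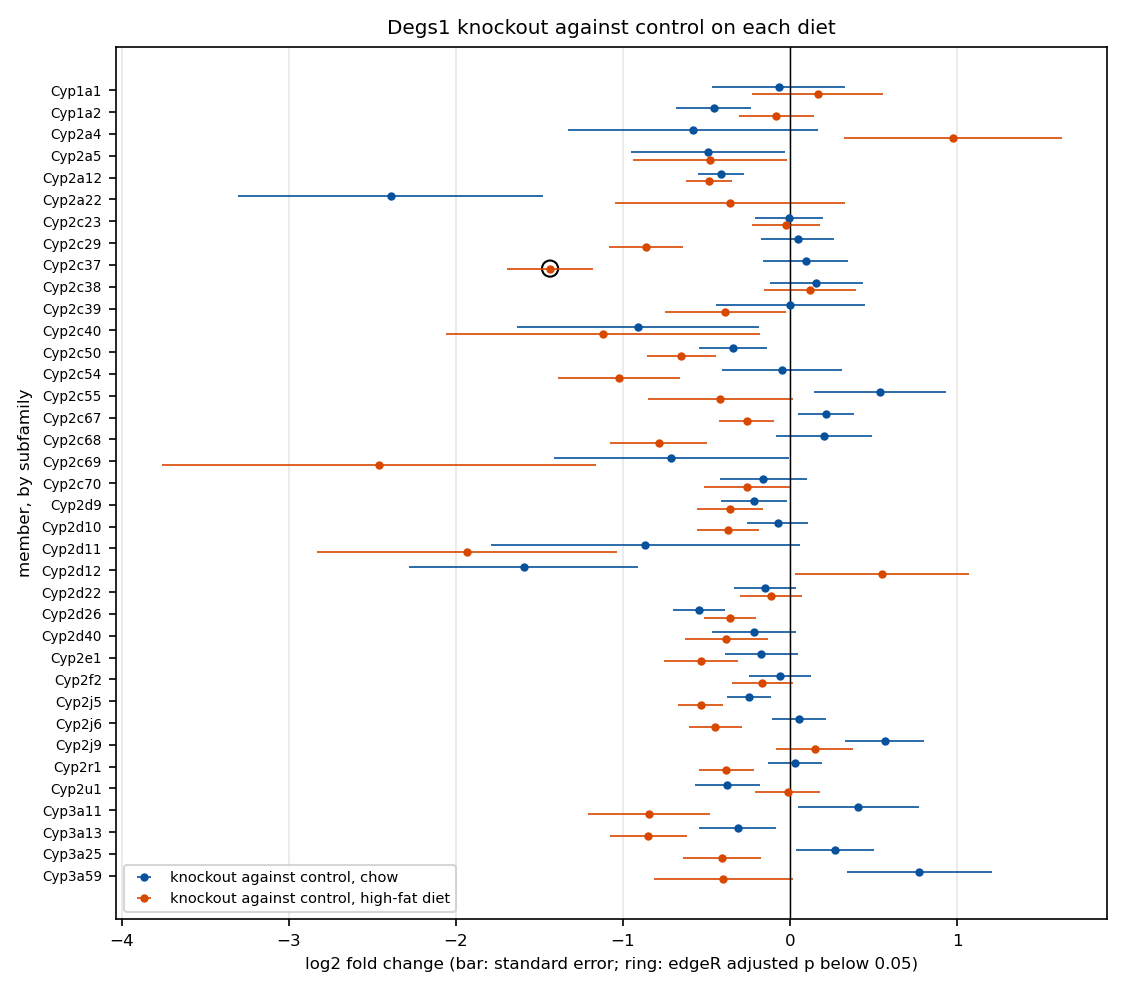
Points give the log2 fold change of knockout against control livers for each member on chow (blue) and on the high-fat diet (orange), with bars for the standard error and a ring where the edgeR adjusted p was below 0.05. Only Cyp2c37 on the high-fat diet has a ring, and most orange points lie left of 0.

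Markers of cell types were set beside this comparison, and their part in the result was not tested. The 7 hepatocyte markers were all lower in high-fat knockouts with 0 called, and summed to 93353 to 121321 CPM in high-fat controls and 74783 to 94739 CPM in knockouts. Alb made up most of these sums. The 5 recruited macrophage markers were all higher with 0 called, and summed to 10.7 to 21.1 CPM in controls and 17.5 to 70.8 CPM in knockouts. Of 6 stellate cell markers, 4 were higher and 2 lower. The 2 called were both collagens and higher, Col1a1 (2.57 ± 0.35, adjusted p = 0.00376) and Col1a2 (1.59 ± 0.27, adjusted p = 0.0257), and the list summed to 408 to 599 CPM in controls and 505 to 681 CPM in knockouts. No marker of these 3 lists was at 0 in every liver. In the other liver cell lists 0 were called. Higher in knockouts were 4 of 7 Kupffer cell and 1 of 5 sinusoidal endothelial markers. So were 4 of 5 cholangiocyte and 1 of 3 tested lymphocyte and neutrophil markers, and the rest of these lists were lower. The unspliced share was also higher in the knockouts, as given above.

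On chow, no member was called between knockout and control. The background was 0% higher and 0.0139% lower among 14351 genes by edgeR, and DESeq2 called 0 members as well, while edgeR without a filter on low counts called 2, Cyp2a22 and Cyp3a59, among 308 genes in all. At an unadjusted p below 0.05 there were 5 members, 4 of them lower and Cyp2j9 higher, where 9.52% of all genes passed. Of the 37, 24 were lower and 13 higher, with a median log2 fold change of -0.15 against -0.01 for all genes. The groups did not overlap for 1 lower member and 0 higher ones, where 2.9% and 3.44% of all genes did so, so the downward count is near the background and the upward one under it.

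The member without overlap was Cyp2d26, at 791, 923, 1177 and 831 CPM in chow controls and 761, 509.7, 671 and 607 CPM in chow knockouts (log2 FC -0.55 ± 0.16, edgeR adjusted p = 0.353). It was also lower without overlap on the high-fat diet, at 832, 927, 1050.3 and 911 CPM against 647, 679, 746 and 823 CPM (log2 FC -0.36 ± 0.16, edgeR adjusted p = 0.193). All 7 Cyp2d genes and all 4 Cyp2a genes had negative values on chow, between -2.39 and -0.07, except that 5 of 7 and 3 of 4 did when the unspliced share entered as covariate, and 6 of 7 Cyp2d genes did with length and GC offsets. Cyp2a12 was at 482, 545, 675 and 726 CPM in chow controls and 500.2, 419.9, 485 and 419.9 CPM in chow knockouts, a small overlap (log2 FC -0.41 ± 0.14, edgeR adjusted p = 0.426). Cyp2a22, a close paralog of Cyp2a12, had the most negative value, -2.39 ± 0.91 (edgeR adjusted p = 0.469). Chow control 4 stood at 6.99 CPM, and the other chow controls at 0.457 to 0.924 CPM. Cyp2j9 was at 4.84, 6.32, 4.88 and 3.56 CPM in controls and 7.51, 8.77, 6.46 and 6.15 CPM in knockouts (log2 FC 0.57 ± 0.24, edgeR adjusted p = 0.492). The 13 Cyp2c genes were split, 7 higher and 6 lower, with a median of 0.00, and Cyp2c37 was at 237, 344, 429 and 239 CPM in controls and 378, 293, 395 and 268 CPM in knockouts.

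Whether the knockout effect differed between diets was tested as an interaction. No member was called, and the background was 0% in each direction by edgeR. At an unadjusted p below 0.05 there were 6 members, 5 negative and Cyp2d12 positive, where 11.3% of all genes passed. DESeq2 called 1 member, Cyp2c37, among 71 genes in all, and edgeR without the filter called 6 among 259. For Cyp2c37 the interaction was -1.53 ± 0.36 (edgeR adjusted p = 0.211) and -1.55 in DESeq2 (adjusted p = 0.0139). Cyp2c29 had -0.91 ± 0.31 (edgeR adjusted p = 0.298) and Cyp3a11 -1.25 ± 0.51 (edgeR adjusted p = 0.371). In the full fit 28 of 37 values were negative, with a median of -0.30, among them all 13 Cyp2c and all 4 Cyp3a genes. With upper-quartile scaling 11 of 13 Cyp2c genes were negative, and with length and GC offsets 8. Without high-fat control 3 and chow knockout 1, 18 of 37 were negative and the median was 0.00, with 7 of 13 Cyp2c and 3 of 4 Cyp3a genes negative. Cyp2c37 then had -1.30 (edgeR adjusted p = 0.21), Cyp2c29 -0.71 and Cyp3a11 -0.55.

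The diet comparisons gave more calls, and most of them were of Cyp2c genes. In controls, 3 members rose and 2 fell on the high-fat diet, against 0.941% and 0.885% of all genes. In knockouts, 5 rose and 10 fell, against 5.21% and 5.35%, so that the members' shares were above the background in both genotypes. Of those called in knockouts, Cyp2d12 (higher) and Cyp2c69 (lower) met the count rule only through livers of the diet where they were higher. Both also count among the members without overlap in knockouts, and Cyp2c69 also among the 4 lower ones without overlap in controls. The groups did not overlap for 4 higher and 4 lower members in controls, where 3.21% and 4.01% of all genes did so, and for 3 higher and 15 lower members in knockouts, where the shares were 12.1% and 12.4%. In knockouts the upward count was thus under the background and the downward one above it. The median log2 fold change of the members was -0.02 in controls and -0.31 in knockouts. The diet comparisons share no livers with each other, but each shares groups with the knockout comparisons above. Without high-fat control 3, members called in controls increased from 5 to 11, with Cyp2c40, Cyp2c55, Cyp2c68, Cyp2c69, Cyp2c70 and Cyp2j9 added, while all genes called increased from 135 higher and 127 lower to 955 in all. In knockouts, leaving out chow knockout 1 added Cyp2a5 and Cyp3a59 and removed Cyp2a4, Cyp2c68, Cyp2f2 and Cyp2r1. Leaving out high-fat control 3, which enters that comparison only through the filter, scaling and estimate of spread shared by all livers, added Cyp2c40, Cyp2j6 and Cyp3a11. With the unspliced share as covariate, 7 of the 15 calls in knockouts held: Cyp2a4, Cyp2a22, Cyp2c23, Cyp2c29, Cyp2c38, Cyp2c67 and Cyp2d12.

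The Cyp2c genes lie in a cluster on chromosome 19 of GRCm38, with Cyp2c23 far from the others. Of 13, 2 rose and 2 fell in controls, and 2 rose and 8 fell in knockouts, where all 13 had an unadjusted p below 0.05. Of all genes tested, 28.8% passed that level in knockouts. Several of the 13 share sequence windows, so they are not 13 separate results. The promoters below are of genes that fell in one or both genotypes (Cyp2c29, Cyp2c37, Cyp2c67), of the close paralog of Cyp2c37 that edgeR did not call (Cyp2c50), and of a neighbour that rose (Cyp2c38). They are the 150 bases before the RefSeq start of each gene (GRCm38.p6), read 5′ to 3′ on the strand of the gene. Capitals mark the letters CAAAGTNCA, a short form of the site of Hnf4a, a hepatocyte transcription factor, and TATAAA, the TATA box, searched on both strands. The windows are chr19:39286935-39287084 for Cyp2c29, chr19:39992274-39992423 for Cyp2c37 and chr19:40089529-40089678 for Cyp2c50, all on the plus strand. They are chr19:39649043-39649192 for Cyp2c67 and chr19:39463076-39463225 for Cyp2c38, both on the minus strand.
Cyp2c29: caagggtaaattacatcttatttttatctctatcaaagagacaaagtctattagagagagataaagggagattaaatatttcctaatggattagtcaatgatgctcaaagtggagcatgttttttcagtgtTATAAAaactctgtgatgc
Cyp2c37: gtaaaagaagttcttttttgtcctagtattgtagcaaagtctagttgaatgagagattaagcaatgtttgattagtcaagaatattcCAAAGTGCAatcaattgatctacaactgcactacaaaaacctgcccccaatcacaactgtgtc
Cyp2c50: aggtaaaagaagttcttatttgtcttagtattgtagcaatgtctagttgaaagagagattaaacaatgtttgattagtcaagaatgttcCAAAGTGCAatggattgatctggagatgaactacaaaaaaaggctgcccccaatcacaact
Cyp2c67: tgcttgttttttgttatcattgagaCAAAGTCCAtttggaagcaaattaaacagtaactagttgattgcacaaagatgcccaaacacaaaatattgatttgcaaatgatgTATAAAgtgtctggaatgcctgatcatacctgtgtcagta
Cyp2c38: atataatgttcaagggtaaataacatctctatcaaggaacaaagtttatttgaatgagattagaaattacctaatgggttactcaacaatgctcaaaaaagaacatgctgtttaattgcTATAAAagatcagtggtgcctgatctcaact

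RefSeq promoters matched 32 of the 37 members. Cyp2c39 and Cyp3a25, with 2 windows each, were counted if either window matched, while the background is per window. CAAAGTNCA was found in 9 of the 32 (28.1%) and in 0.746% of 32851 promoter windows of the same length. The 9 were Cyp2c37, Cyp2c40, Cyp2c50, Cyp2c67, Cyp2c68, Cyp2c69, Cyp2c70, Cyp2d26 and Cyp3a11. Of these, 5 fell on the high-fat diet in knockouts, Cyp2c37, Cyp2c67, Cyp2c68, Cyp2c69 and Cyp2c70, and the rest were not called in any comparison by edgeR on all 16 livers. In that comparison 10 of all 37 members (27.0%) and 5.35% of all genes fell. Cyp2c29, Cyp2c55, Cyp2f2 and Cyp2r1, whose windows lack these letters, fell as well. A link between the letters and the fall was not tested. TATAAA was found in 18 of 32 (56.2%) and in 7.57% of all windows. AGGTCA, the hexamer read by nuclear receptors such as CAR and PXR, was in 2, Cyp2c39 and Cyp2c70 (8.58% of all windows). For Cyp2c39 it was in the window chr19:39347196-39347345, far from the gene at chr19:39510862-39568529, and not in the other window. GCGTG, the core bound by Ahr, was in 2, Cyp1a1 and Cyp2c68 (20.5%), and GTTAAT, part of the Hnf1 site, in 1 (3.71%). TTCNNNGAA, the letters bound by Stat5, the growth hormone signal, was in 0 (4.09%). The Cyp2c37 and Cyp2c50 windows were identical at 120 of 148 bases (81.1%) at the best shift, while other pairs of the 5 reached at most 41.8%. These matches describe letters in the windows only.

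Cyp2c23 and Cyp2c67 fell in both genotypes. Cyp2c23, an arachidonic acid epoxygenase, was at 389.6, 429.5, 429 and 378 CPM in chow controls and 103, 194, 154 and 186 CPM in high-fat controls. In knockouts it was at 471, 376, 394 and 379 CPM on chow and 114, 124, 219 and 170.1 CPM on the high-fat diet. The diets did not overlap in either genotype, with log2 fold changes of -1.35 ± 0.21 (edgeR adjusted p = 0.00493) in controls and -1.37 ± 0.21 (edgeR adjusted p = 0.00158) in knockouts. Cyp2c67 was at 271, 242, 307 and 324 CPM in chow controls and 139.9, 102, 176 and 121 CPM in high-fat controls. Chow knockouts were at 386, 347, 292 and 303 CPM and high-fat knockouts at 101, 97.4, 133 and 118 CPM. Again no liver overlapped, and the log2 fold changes were -1.09 ± 0.17 (edgeR adjusted p = 0.00493) and -1.56 ± 0.17 (edgeR adjusted p = 0.000167). Both genes kept these calls in all 16 fits without 1 library and in all 10 other settings.

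Cyp2c38 and Cyp2c39, neighbours within the cluster, rose in both genotypes. Of the windows of Cyp2c39, 12.05% also occurred in another gene, and 10.97% in Cyp2c38, so these may not be separate results. Whether reads of Cyp2c38 were counted for Cyp2c39 was not tested. Cyp2c38 was at 21, 22, 25.7 and 37.4 CPM in chow controls and 81.5, 83, 90 and 50.5 CPM in high-fat controls, without overlap (log2 FC 1.52 ± 0.28, edgeR adjusted p = 0.0101). In knockouts it was at 43.9, 26.5, 23.7 and 25 CPM on chow and 104, 90.9, 40.3 and 96.2 CPM on the high-fat diet (log2 FC 1.48 ± 0.28, edgeR adjusted p = 0.00578). Here chow knockout 1 was above high-fat knockout 3, so the groups overlapped at 1 liver each. Cyp2c39 was far lower, at 1.25, 1.75, 0.873 and 1.94 CPM in chow controls and 4.68, 3.95, 6.36 and 3.4 CPM in high-fat controls (log2 FC 1.65 ± 0.39, edgeR adjusted p = 0.0342). In knockouts it was at 3.12, 0.83, 1.21 and 0.888 CPM on chow and 3.69, 3.6, 2.24 and 4.53 CPM on the high-fat diet (log2 FC 1.27 ± 0.39, edgeR adjusted p = 0.047). The Cyp2c38 calls held in all settings run, while those of Cyp2c39 were lost in 7 of 16 fits without 1 library in controls (adjusted p up to 0.0992, edgeR) and 10 of 16 in knockouts (up to 0.143, edgeR). In controls these were each chow control, high-fat controls 1 and 2 and high-fat knockout 2. In knockouts they were chow controls 1 and 2, chow knockouts 2, 3 and 4, high-fat controls 2 and 4 and high-fat knockouts 1, 2 and 4.

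Other Cyp2c genes were called in knockouts and not in controls, a difference that the interaction test by edgeR did not call for any of them. DESeq2 called it for Cyp2c37, and edgeR without the filter on low counts for Cyp2c37 and Cyp2c68. Cyp2c29 was at 3221, 2219, 3029.6 and 2578 CPM in chow knockouts and 897, 836, 1277 and 1165 CPM in high-fat knockouts (log2 FC -1.40 ± 0.22, edgeR adjusted p = 0.00219). In controls it was at 2286, 2337, 3184 and 2886 CPM on chow and 1068, 2017, 2339 and 2167 CPM on the high-fat diet, an overlap through 2 chow and 1 high-fat livers (log2 FC -0.49 ± 0.22, edgeR adjusted p = 0.255). Cyp2c37 fell in knockouts, from 333 ± 62.3 to 148 ± 46.1 CPM (log2 FC -1.17 ± 0.26, edgeR adjusted p = 0.0113), with 0.36 ± 0.25 (edgeR adjusted p = 0.514) in controls. Its paralogs in the same part of the cluster had the same sign in knockouts without a call by edgeR: Cyp2c54 had -1.03 ± 0.37 (edgeR adjusted p = 0.0753) and Cyp2c50 had -0.52 ± 0.21 (edgeR adjusted p = 0.107).

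Cyp2c55, which hydroxylates arachidonic acid, was at 13.2, 6.57, 10.1 and 10.2 CPM in chow knockouts and 2.55, 1.59, 2.29 and 2.13 CPM in high-fat knockouts (log2 FC -2.22 ± 0.42, edgeR adjusted p = 0.00604). In controls it was at 8.65, 5.03, 4.72 and 8.97 CPM on chow and 0.475, 2.99, 5.28 and 2.7 CPM on the high-fat diet (log2 FC -1.26 ± 0.41, edgeR adjusted p = 0.121). Cyp2c70 was at 647, 565, 583 and 666 CPM in chow knockouts and 204, 269.5, 453 and 301 CPM in high-fat knockouts, without overlap (log2 FC -1.003 ± 0.26, edgeR adjusted p = 0.0231). In controls it was at 567, 747, 838 and 594 CPM on chow and 233, 285, 595 and 351 CPM on the high-fat diet, where control 3 alone reached the chow range (log2 FC -0.91 ± 0.26, edgeR adjusted p = 0.0795, and -1.24 with edgeR adjusted p = 0.0051 without control 3). The call of Cyp2c70 in knockouts was lost without any one of chow knockouts 2 and 4 and high-fat knockouts 1, 2 and 4 (adjusted p up to 0.0859, edgeR).

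Cyp2c68 also fell in knockouts, at 166, 156, 127 and 148 CPM in chow knockouts and 55.5, 63.6, 67.8 and 94.3 CPM in high-fat knockouts (log2 FC -1.09 ± 0.29, edgeR adjusted p = 0.0266). That call was lost without any one of chow knockouts 1, 2 and 4 and high-fat knockouts 1, 2 and 3 (adjusted p up to 0.0922, edgeR). In high-fat controls it was at 81.2, 65.8, 235 and 102 CPM, with control 3 above all 4 chow controls, which were at 111 to 152 CPM. Cyp2c69 had 53 counts over the 4 chow controls, 26 over the chow knockouts, 7 over the high-fat controls and 1 over the high-fat knockouts. It met the count rule through 5 livers, all on chow, so the rule favoured a fall with the high-fat diet. The ratio of high-fat to chow knockouts was 0.0391 (exact 95% interval 0.000954 to 0.238, which covers counting error only), and the gene was called lower (edgeR adjusted p = 0.0187), a call lost without chow knockout 2 or high-fat knockouts 1 or 3 (adjusted p up to 0.0593). In CPM it was at 0.878, 0.592, 0.242 and 0.205 in chow knockouts and 0, 0.0514, 0 and 0 in high-fat knockouts, and at 0.761, 0.838, 0.514 and 0.947 in chow controls and 0, 0, 0.406 and 0.05 in high-fat controls. Cyp2c40, which shares most of its sequence windows with other genes, most often Cyp2c69, was lower without overlap in both genotypes and not called (log2 FC -2.33 ± 0.79, edgeR adjusted p = 0.132 in controls, -2.54 ± 0.88, edgeR adjusted p = 0.0687 in knockouts).

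**Figure D4:**
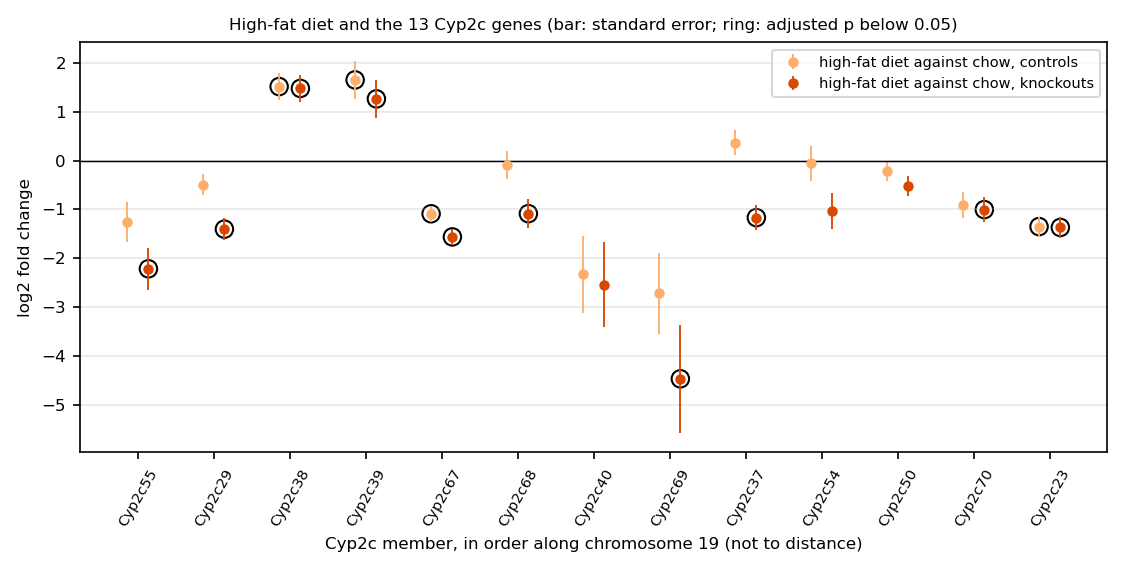
Log2 fold change of high-fat diet against chow for the 13 Cyp2c members in their order along chromosome 19, in controls (light) and knockouts (dark), with bars for the standard error and rings for an edgeR adjusted p below 0.05. Cyp2c38 and Cyp2c39 lie above 0 in both genotypes, while Cyp2c37 lies above 0 in controls and below it in knockouts, and the point of Cyp2c69 in knockouts rests on 1 count in the high-fat livers.

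**Figure D5:**
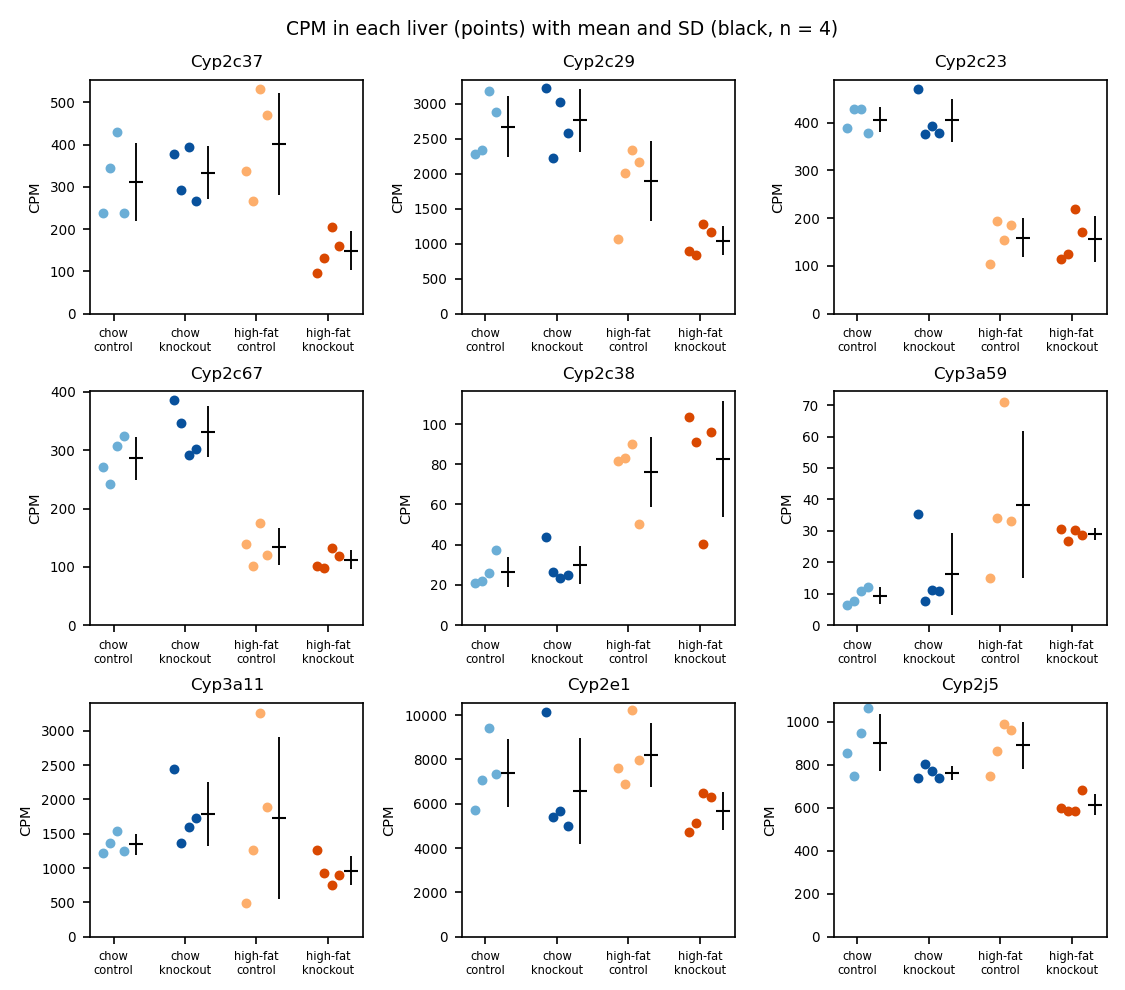
CPM of 9 members in each liver (points), with the mean and SD of each group of 4 in black and all axes starting at 0. The high-fat knockouts are below the other 3 groups for Cyp2c37, both high-fat groups are below both chow groups for Cyp2c23 and Cyp2c67, and single livers reach 70.9 CPM for Cyp3a59 and 3266 CPM for Cyp3a11.

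The Cyp3a genes showed 1 call by edgeR on all 16 livers. Cyp3a59 rose in controls, from 6.57, 7.69, 10.9 and 12.2 CPM on chow to 15.1, 34.2, 70.9 and 33 CPM on the high-fat diet, without overlap (log2 FC 2.03 ± 0.44, edgeR adjusted p = 0.0238). The call was lost when any single chow control was left out (adjusted p up to 0.0801, edgeR), and without high-fat control 3 the log2 fold change was 1.55 (edgeR adjusted p = 0.0289). In knockouts it was at 35.5, 7.7, 11.1 and 10.9 CPM on chow and 30.6, 26.6, 30.2 and 28.7 CPM on the high-fat diet (log2 FC 0.85 ± 0.43, edgeR adjusted p = 0.196), where chow knockout 1 was above every high-fat knockout. Without chow knockout 1 Cyp3a59 was called higher in knockouts too (log2 FC 1.56 ± 0.37, edgeR adjusted p = 0.0174). Cyp3a25, which shares 25.0% of its windows with Cyp3a59, was at 389.8, 404, 544 and 333 CPM in chow controls and 590.4, 711, 998 and 744 CPM in high-fat controls, also without overlap but not called (log2 FC 0.86 ± 0.23, edgeR adjusted p = 0.0669). It was called there by DESeq2 and limma-voom, and by edgeR without chow knockout 1 (log2 FC 0.89 ± 0.17, edgeR adjusted p = 0.0137). Cyp3a11 was at 2446, 1367, 1599.8 and 1725 CPM in chow knockouts and lower without overlap in high-fat knockouts, at 757 to 1264 CPM (log2 FC -0.89 ± 0.36, edgeR adjusted p = 0.118). Chow controls were at 1220.3, 1363, 1546 and 1246 CPM for Cyp3a11. Cyp3a13 was at 145, 175, 317 and 157 CPM in chow controls and 224, 143, 146 and 127 CPM in chow knockouts, with 0.12 ± 0.23 (edgeR adjusted p = 0.858) for diet in controls and -0.42 ± 0.23 (edgeR adjusted p = 0.239) in knockouts.

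Among Cyp2a genes, 2 of low level rose in knockouts. Cyp2a4, a testosterone hydroxylase that is higher in female mice, was at 0.0975, 0.0592, 1.63 and 1.16 CPM in chow knockouts and 7.17, 4.99, 1.97 and 3.8 CPM in high-fat knockouts, without overlap (log2 FC 2.54 ± 0.72, edgeR adjusted p = 0.0326). Cyp2a22 was at 0.0975, 0.237, 0.725 and 0.683 CPM in chow knockouts and 13.1, 5.97, 1.87 and 5.46 CPM in high-fat knockouts, without overlap (log2 FC 3.84 ± 0.89, edgeR adjusted p = 0.014). In controls neither was called: Cyp2a4 had 0.99 ± 0.69 (edgeR adjusted p = 0.515), at 0.346, 1.75, 1.59 and 0.902 CPM on chow and 1.02, 1.53, 5.21 and 1.4 CPM on the high-fat diet, and Cyp2a22 had 1.80 ± 0.73 (edgeR adjusted p = 0.211). Cyp2a22 was at 0.899, 0.457, 0.924 and 6.99 CPM in chow controls and 2.51, 10.5, 16.2 and 4.75 CPM in high-fat controls. Cyp2a5, which oxidises coumarin and nicotine and is close to Cyp2a4 in sequence, varied widely within groups, from 148 to 595 CPM in chow controls and 98.3 to 657 CPM in chow knockouts, and was not called by edgeR on all 16 livers. Without chow knockout 1 it was called higher with diet in knockouts (log2 FC 1.21 ± 0.37, edgeR adjusted p = 0.0488), as it was by limma-voom. The call of Cyp2a4 was lost without any one of chow knockouts 1, 2 and 4 and high-fat knockouts 1 and 2 (adjusted p up to 0.0954, edgeR), and that of Cyp2a22 without chow knockout 2 (0.0559).

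Of the Cyp2d genes, Cyp2d12 rose in knockouts, from 6 counts over 4 livers on chow to 58 counts on the high-fat diet (log2 FC 2.86 ± 0.64, edgeR adjusted p = 0.0123). It met the count rule through 4 livers, all on the high-fat diet, so the rule favoured this direction. In controls it had 23 counts on chow and 34 on the high-fat diet (log2 FC 0.72 ± 0.56, edgeR adjusted p = 0.571). It was at 0.0975, 0.0592, 0.242 and 0 CPM in chow knockouts and 0.78, 0.771, 1.12 and 0.466 CPM in high-fat knockouts, near the limit of detection, and the call was lost without chow knockout 2 (edgeR adjusted p = 0.0505). The abundant Cyp2d members were not called for diet by edgeR, while limma-voom called Cyp2d9 and Cyp2d10 lower in knockouts. Cyp2d9 was at 1420.4, 1203, 1308 and 1407 CPM in chow knockouts and 769, 922, 1175 and 1085 CPM in high-fat knockouts, with no overlap and no call (log2 FC -0.43 ± 0.20, edgeR adjusted p = 0.157). Its values were 1277, 1891, 1984 and 1052 CPM in chow controls and 1617, 1202, 1146 and 1111 CPM in high-fat controls (log2 FC -0.29 ± 0.20, edgeR adjusted p = 0.499). Cyp2d10 was at 582, 750.3, 852 and 459 CPM in chow controls and 616, 582, 650.3 and 666 CPM in chow knockouts. On the high-fat diet it was at 669, 549, 821 and 567 CPM in controls and 414, 474, 583 and 545 CPM in knockouts, and edgeR called none of its comparisons.

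Cyp2f2, which oxidises naphthalene and in liver is known as a periportal enzyme, fell in knockouts. It was at 986, 706, 916 and 919 CPM on chow and 502, 542, 689.7 and 498 CPM on the high-fat diet, without overlap (log2 FC -0.66 ± 0.19, edgeR adjusted p = 0.032). Controls were at 795, 1091, 1151 and 641 CPM on chow and 655, 722, 605 and 521 CPM on the high-fat diet, with overlap through chow control 4 (log2 FC -0.56 ± 0.19, edgeR adjusted p = 0.125). Cyp2r1 also fell in knockouts, from 29.8, 22.4, 26.5 and 22.3 to 17.5, 14.3, 15.7 and 18.9 CPM (log2 FC -0.61 ± 0.16, edgeR adjusted p = 0.0275), while controls were at 25.7, 24.2, 25.5 and 23.4 CPM on chow and 17, 18.6, 29.5 and 21.2 CPM on the high-fat diet (log2 FC -0.19 ± 0.16, edgeR adjusted p = 0.602). Both calls were lost with upper-quartile scaling and when the unspliced share entered as covariate. Cyp2f2 also lost its call without any one of chow knockouts 1, 3 and 4 and high-fat knockouts 1, 2 and 4 (adjusted p up to 0.0954, edgeR). Cyp2r1 did so without any one of chow knockouts 1, 2 and 3 and high-fat knockouts 1, 2 and 3 (up to 0.106, edgeR) and with length and GC offsets (log2 FC -0.32 ± 0.11, edgeR adjusted p = 0.0688), under which it was called lower in controls (log2 FC -0.45 ± 0.11, edgeR adjusted p = 0.0454). Cyp2e1 was not called for diet in either genotype, at 5742, 7070.3, 9416 and 7345 CPM in chow controls and 10131, 5401, 5697 and 5012 CPM in chow knockouts, where knockout 1 was nearly as high as any liver (log2 FC 0.15 ± 0.22, edgeR adjusted p = 0.799 in controls and -0.21 ± 0.22, edgeR adjusted p = 0.552 in knockouts). On chow, Cyp2j5 was at 856, 749, 948 and 1063 CPM in controls and 738, 805, 771 and 738 CPM in knockouts. For diet, Cyp2j5 had -0.02 ± 0.13 (edgeR adjusted p = 0.964) in controls and -0.31 ± 0.13 (edgeR adjusted p = 0.136) in knockouts, and Cyp2j9 had 0.68 ± 0.24 (edgeR adjusted p = 0.145) and 0.26 ± 0.23 (edgeR adjusted p = 0.495). Cyp2j9 in high-fat livers was at 9.7, 6.82, 4.4 and 10.1 CPM in controls and 8.73, 7.92, 9.11 and 8.72 CPM in knockouts.

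The remaining members showed no call in any of the 5 comparisons by edgeR on all 16 livers. For Cyp2j6 the high-fat knockouts were lower without overlap against both high-fat controls (log2 FC -0.45 ± 0.16, edgeR adjusted p = 0.135) and chow knockouts (log2 FC -0.50 ± 0.16, edgeR adjusted p = 0.0514). Cyp2u1, which hydroxylates fatty acids, had log2 fold changes between -0.37 and 0.18 in the 4 comparisons of groups. Cyp1a1 stayed near the low end at 0.968 to 4.11 CPM in chow controls and 2.16 to 3.69 CPM in high-fat knockouts, and Cyp1a2 was at 597 to 1119 and 467 to 905 CPM. Among the other Cyp2d members, Cyp2d11, Cyp2d22 and Cyp2d40 overlapped between groups in all 4 comparisons of groups.

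The receptors and factors that regulate these enzymes were mostly without a call. For the genes below, values in parentheses are the log2 fold change ± SE and the adjusted p from edgeR, and the lists were chosen with earlier results of these data known. Of 22 regulators tested, 0 were called for the knockout on either diet, 1 rose with diet in controls, and 1 rose and 1 fell with diet in knockouts. Nr1i3 rose in both genotypes. It was at 231.8 ± 53.2 CPM in high-fat and 91.8 ± 14.3 CPM in chow controls (SD, n = 4 each, with a change of 1.34 ± 0.24, adjusted p = 0.00909), and at 207.6 ± 41.1 CPM in high-fat and 102 ± 42.8 CPM in chow knockouts (1.03 ± 0.24, adjusted p = 0.0139). Cebpb, a factor of the acute-phase response, fell in knockouts (-0.75 ± 0.23, adjusted p = 0.0477). The Cyp2b genes, the best known targets of CAR, lie outside the rule used here. Of 3 tested, 2 rose in controls and 1 in knockouts: Cyp2b9 was at 117 ± 54.1 CPM in high-fat and 0.124 ± 0.135 CPM in chow controls (9.61 ± 0.71, adjusted p = 1.08e-06, edgeR). Of 4 tested Ahr targets outside the members, Ugt1a6a rose with diet in controls (1.54 ± 0.37, adjusted p = 0.0415) and in knockouts (1.37 ± 0.36, adjusted p = 0.0259).

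Among 16 genes of electron supply and haem synthesis, 0 were called for the knockout, 1 fell with diet in controls and 2 in knockouts. Cyb5r3, a cytochrome b5 reductase, fell in controls (-0.71 ± 0.13, adjusted p = 0.00909) and in knockouts (-0.61 ± 0.13, adjusted p = 0.00906), and Fech, the last enzyme of haem synthesis, in knockouts (-0.59 ± 0.14, adjusted p = 0.014). Of 37 conjugating enzymes, which act on the products of cytochromes, 31 were lower in high-fat knockouts than in high-fat controls, with a median of -0.51 and 0 called. With diet, 3 rose and 2 fell in controls, and 2 rose and 5 fell in knockouts, among them the glucuronosyltransferases Ugt2b1 (-0.94 ± 0.21, adjusted p = 0.0126) and Ugt2b5 (-0.85 ± 0.20, adjusted p = 0.0157). Of 27 other oxidising and hydrolysing enzymes tested, 0 were called for the knockout or for diet in controls, and 7 fell with diet in knockouts, such as the carboxylesterases Ces1d (-1.14 ± 0.22, adjusted p = 0.00649) and Ces2a (-1.06 ± 0.23, adjusted p = 0.00981). Of 16 transporters, 1 rose in controls, Slco1a4 (1.54 ± 0.34, adjusted p = 0.0263), and 3 fell in knockouts, Slco1a1 (-1.59 ± 0.30, adjusted p = 0.00525), Slc10a1 (-0.83 ± 0.17, adjusted p = 0.00796) and Abcb11 (-0.68 ± 0.15, adjusted p = 0.0119).

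Genes known to differ between the sexes or between zones of the lobule were set beside the members, because several members do so. Of 11 male-biased genes, 5 fell with the high-fat diet in controls and 9 in knockouts, with all 11 below 0 in both and medians of -1.44 and -1.59. Cyp4a12a, a male-predominant fatty acid hydroxylase, fell in controls (-1.74 ± 0.26, adjusted p = 0.0046). Of 5 female-biased genes tested, 4 rose in controls and 2 in knockouts, among them Cyp17a1 (2.90 ± 0.51, adjusted p = 0.00856 in controls). The female-biased list shares at least 1 gene with the Cyp2b list above, so the counts of these 2 lists are not separate results. Of 14 pericentral genes, 2 fell in high-fat knockouts against high-fat controls, Oat (-1.07 ± 0.18, adjusted p = 0.0257) and Lhpp (-0.83 ± 0.16, adjusted p = 0.0455), and 1 rose with diet in knockouts. Of 13 periportal genes, 0 were called for the knockout, 1 fell with diet in controls, and 2 fell and 1 rose in knockouts. With diet in knockouts, 2 of 7 hepatocyte markers fell and 4 of 5 recruited macrophage markers rose. So did 2 of 6 stellate cell and 1 of 3 tested lymphocyte and neutrophil markers, while no Kupffer cell, sinusoidal endothelial or cholangiocyte marker was called. The hepatocyte sums, mostly Alb, were 133820 to 158412 CPM in chow knockouts, above the 74783 to 94739 CPM of the high-fat knockouts. In controls they were 120814 to 135167 CPM on chow and 93353 to 121321 CPM on the high-fat diet. There 6 of 7 hepatocyte markers were lower with diet and 0 were called. The part of these markers in the results was not tested.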

How the data were processed

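RNA was taken from 16 mouse livers, and libraries were made with the TruSeq Stranded kit with Ribo-Zero Gold, per the labels' protocols. The authors deposited 1 table of whole-number counts per gene. Per the submitters' processing notes, STAR 2.5.4a, featureCounts 1.5.1, DESeq2 and GRCm38 were named. The strand setting, the treatment of reads with several matches and the annotation release are not recorded in labels or headers, so reads of antisense and paralogous genes may be mixed. All 16 columns were matched to samples by title.

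From these counts, genes were filtered with filterByExpr (minimum count 10), leaving 14351, scaled by TMM and fitted over all 16 livers with edgeR 4.0.16 (R 4.3.3) by the quasi-likelihood test, with a mean per group and no covariate. P-values were adjusted over all genes (Benjamini-Hochberg, 0.05). The common biological coefficient of variation was 0.247. A level of 3 counts was the floor. The script was tested on simulated data. The members and lists were chosen with earlier results of these data known. Values in every liver were given for members called in any comparison, the 4 with the smallest p in each and the 5 with the highest level per length. Of each pathway list, up to 3 genes with the smallest p in a comparison were named. Genes of other kinds were named only where a result turned on them. Promoters came from RefSeq (GRCm38.p6). Alternatives were DESeq2 1.42.0, limma 3.58.1 (voom with quality weights), RLE and upper-quartile scaling, no filter on low counts, only the groups compared, each library left out, 2 libraries left out together, the unspliced share as covariate, length and GC offsets, and a threshold of 0.1.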

Additional observations from a re-analysis of the deposited data

Results flagged for a closer look

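In 104 groups of 4 livers, the highest or lowest liver was compared with the rest of its group, and 10 lay far from the other 3. Chance gives about 1 in 20 for normally spread values, which does not hold for counts near 0. For Cyp2c69 in high-fat knockouts, with 1 count in 1 liver and 0 in the others, the flag was fixed in advance. Several flags come from the same liver, so no comparison with chance is drawn. High-fat control 3 was the highest of its group for Cyp2a4 (5.21 CPM, others 1.02 to 1.53) and Cyp2c69 (0.406 CPM, others 0 to 0.05). Chow knockout 1 was the highest of its group for Cyp2e1 (10131 CPM, others 5012 to 5697), Cyp2c38 (43.9 CPM, others 23.7 to 26.5), Cyp2c39 (3.12 CPM, others 0.83 to 1.21) and Cyp3a59 (35.5 CPM, others 7.7 to 11.1). Chow control 4 was the highest for Cyp2a22 (6.99 CPM, others 0.457 to 0.924). High-fat knockout 4 was the highest for Cyp2j5 (685 CPM, others 587 to 602). High-fat knockout 2 was the lowest for Cyp3a13 (98.7 CPM, others 124 to 129) and the only one of its group with a count for Cyp2c69 (0.0514 CPM, others 0).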

How the results depend on the processing

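The number of members called moved with the processing, as did that of all genes, and no direction of a called member was reversed in any setting run. For the knockout on the high-fat diet, 1 member was called, against 6 with DESeq2, 8 with no filter on low counts, 5 with limma-voom, 4 at a threshold of 0.1, and 0 with only the groups compared, with both livers that stand apart left out (high-fat control 3, chow knockout 1), with the unspliced share as covariate and with length and GC offsets. All genes called were 9 higher and 7 lower, against 578 with DESeq2, 964 with no filter and 287 with limma-voom. They were 1 with only the groups compared, 12 without the 2 livers and 12 with length and GC offsets. With the unspliced share as covariate they were 0, so Degs1 was not called there either. Leaving out 1 library gave 0 to 2 members. For the knockout on chow, 0 were called, and 2 with no filter (308 of all genes), while leaving out 1 library gave 0 throughout. For diet in controls, 5 were called, against 10 with no filter (992 of all genes), 10 with limma-voom (790), 12 without the 2 libraries (1219), 8 with length and GC offsets, 8 at a threshold of 0.1, and 3 to 11 with 1 library left out. For diet in knockouts, 15 were called, against 25 with limma-voom (4345 of all genes), 7 with the unspliced share as covariate (873), and 7 to 18 with 1 library left out. For the interaction, 0 were called, 1 with DESeq2 (71 of all genes) and 6 with no filter (259). The cause of these shifts was not tested.

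No paired analysis was possible because each liver has its own animal number and no number is shared between groups. Of the 37 members, 10 had a mean below 10 CPM, from 87 counts over all livers for Cyp2c69 to 1891 for Cyp2j9. With 4 livers a group, 3 counts equal 0.129 to 0.251 CPM here. In livers near that floor, as for Cyp2c69, Cyp2c40, Cyp2d11 and Cyp2d12, absence cannot be told from low level. The split of reads among genes with shared windows was not tested.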
